A study of Homo sapiens with 6 samples.

Results

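The 9 genes described here code for enzymes of the pentose phosphate pathway and for the NADP-linked enzymes that make NADPH beside it, in AC16 cells kept with or without potassium chloride (KCl). They were chosen by gene symbol: PGLS and PGD of the oxidative branch, RPIA, RPE, TKT and TALDO1 of the non-oxidative branch, and ME1, IDH1 and IDH2. All 9 were found among the 19386 genes of the table, and all 9 passed the filter on low counts. AC16 is a human line with a wild-type genotype in the labels, made by fusing adult ventricular heart cells with virus-transformed fibroblasts. The study's title links potassium and a cardioplegia solution to NRF2, a transcription factor of the antioxidant response, and to oxidative stress. Messenger RNA was measured in 3 libraries of untreated cells and 3 libraries of cells given 26 mM KCl, all at 16 h.

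NADPH is the electron donor that cells spend on rebuilding reduced glutathione and thioredoxin and on making fatty acids and sterols. The oxidative branch of the pentose phosphate pathway makes NADPH in the cytosol while it turns a glucose phosphate into a pentose phosphate, and the reversible non-oxidative branch joins pentose phosphates to the sugar phosphates of glycolysis. Cytosolic malic enzyme and the isocitrate dehydrogenases of the cytosol and of mitochondria also make NADPH, from malate and isocitrate. PGD, TKT, TALDO1, ME1 and IDH1 are among the genes commonly listed as NRF2 targets.

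Library totals were 18601977 to 19286588 estimated reads. The labelled cell type was checked against markers. Of 12 cardiomyocyte markers, 7 had at most 3 reads in every library, and 4 of these 7 (TNNT2, MYL7, NPPA and NKX2-5) had none. The others had more than 3 reads in some library. The most abundant was the cardiac transcription factor gene GATA4, at 37.4 to 46.6 CPM (reads relative to library size, scaled by the TMM factors of edgeR). The summed level of 8 fibroblast markers was 6150 to 6550 CPM in control and 6500 to 6780 CPM in KCl. By the test given below, 7 of the 8 were called higher, where 20.1% of all genes tested were. The summed level of 4 leukocyte markers, nearly all of it from the lysosomal gene CD68, was 141 to 151 CPM in control and 105 to 109 CPM in KCl. Endothelial markers summed to 9.19 to 10.5 CPM in control and 11 to 13.4 CPM in KCl, and epithelial markers to 1.83 to 1.98 and 2.74 to 3.69 CPM. Each list other than the fibroblast one had 2 tested genes. Of these, 1 endothelial and 1 epithelial marker were called higher, 1 leukocyte marker lower, and no cardiomyocyte marker was called. The part of these markers in the results below was not tested. In RNA from a whole culture, fewer cells of a type and less RNA per cell cannot be told apart.

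The study's question on NRF2 gives a reason to show the sequence before the start of the members that changed. The 250 bases upstream of the RefSeq starts (GRCh38.p14) were searched on both strands for the core of the antioxidant response element, the DNA element of NRF2, spelled TGACNNNGC. The windows of ME1 (chr6:83431052-83431301, minus strand), of IDH1 at its upstream start (chr2:208255072-208255321, minus strand), of TKT (chr3:53256023-53256272, minus strand) and of TALDO1 (chr11:747214-747463, plus strand) are printed 5′ to 3′ along the gene, with each match in capitals.
ME1: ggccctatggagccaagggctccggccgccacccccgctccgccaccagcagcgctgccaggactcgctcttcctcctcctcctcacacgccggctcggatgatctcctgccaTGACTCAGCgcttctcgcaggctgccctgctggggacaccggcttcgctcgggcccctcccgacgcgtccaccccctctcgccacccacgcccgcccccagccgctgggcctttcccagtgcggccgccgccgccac
IDH1: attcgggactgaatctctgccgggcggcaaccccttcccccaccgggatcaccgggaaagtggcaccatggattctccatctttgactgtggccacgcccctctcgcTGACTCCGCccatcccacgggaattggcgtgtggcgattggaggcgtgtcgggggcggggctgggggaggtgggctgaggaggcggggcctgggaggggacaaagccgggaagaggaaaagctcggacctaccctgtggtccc
TKT: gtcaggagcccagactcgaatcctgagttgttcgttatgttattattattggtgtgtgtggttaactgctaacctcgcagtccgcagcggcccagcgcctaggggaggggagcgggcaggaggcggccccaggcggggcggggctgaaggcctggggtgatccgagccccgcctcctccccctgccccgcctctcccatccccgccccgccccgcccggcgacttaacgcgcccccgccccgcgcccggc
TALDO1: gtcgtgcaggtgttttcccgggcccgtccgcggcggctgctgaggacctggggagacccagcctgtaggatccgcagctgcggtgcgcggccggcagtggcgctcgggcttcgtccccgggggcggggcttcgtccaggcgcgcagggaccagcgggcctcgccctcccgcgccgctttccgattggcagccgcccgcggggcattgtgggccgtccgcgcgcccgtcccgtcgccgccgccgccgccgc

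The letters were found in the windows of 4 of the 9 genes, in 4 of 10 windows, since IDH1 has a second listed start whose window held none. Of all 35116 windows of this length, 10.9% held them. The ME1 match, TGACTCAGC, lay 137 to 129 bases before the start and overlapped the letters of an AP-1 site (TGANTCA, in 6.57% of all windows). The IDH1 match, TGACTCCGC, lay 143 to 135 bases before the start. The other matches were TGACATTGC on the opposite strand of PGD, 201 to 193 bases before the start, and TGACAGCGC of RPE, 151 to 143 bases before it. The TKT and TALDO1 windows held none, and the only IDH2 window listed belongs to a start inside the gene. Both IDH1 starts also lie inside the longer IDH1 gene that GENCODE annotates. The PGD window (chr1:10398814-10399063, plus strand), with its match, likewise lies wholly inside the GENCODE gene, which starts at 10398592. The windows of PGLS, RPIA, RPE, TKT, TALDO1 and ME1 overlap their GENCODE genes in part. An E-box (CACGTG, in 6.34% of all windows) was in none of the 10. So the letters stood in windows of a pair of members that rose (ME1 and IDH1) and of a pair that did not pass (PGD and RPE), as described next, and a match is a description of letters only.

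Of the 9 genes, ME1, IDH1 and TKT rose, TALDO1 fell, and PGLS, PGD, RPIA, RPE and IDH2 did not pass (edgeR quasi-likelihood test, Benjamini-Hochberg adjusted over the 13044 genes tested, threshold 0.05). Of all genes tested, 20.1% were called higher and 18.0% lower in KCl. Called in either direction were 4 of the 9 and 38.0% of all genes, so the count alone does not set the 9 apart from other genes. The median log2 fold change of the 9 was 0.07, against -0.005 for all genes tested. The groups did not overlap at 3 members in the higher and 1 in the lower direction, where 24.5% and 23.3% of all genes (47.8% in either direction) had none. The share of higher calls among all calls was 52.8% on TMM-scaled counts, 40.9% by limma on log2(TPM + 1) and 33.5% by limma on log2(FPKM + 1), and the direction and call of ME1, IDH1, TKT and TALDO1 were as given on each of these scales.

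**Figure D1:**
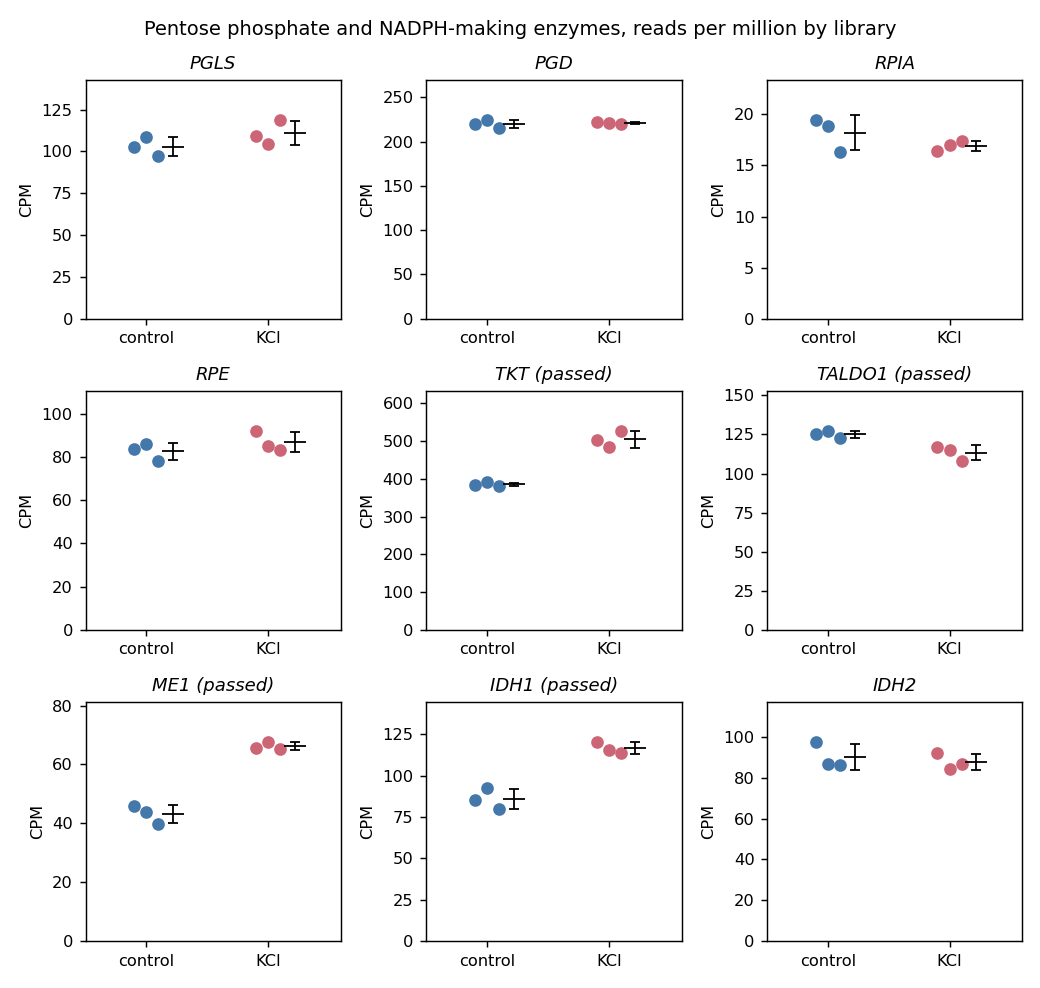
TMM-scaled reads (CPM, y axis from 0) of the 9 genes in each of the 3 control and 3 KCl libraries, with the mean and SD beside them, and "passed" for an adjusted p under 0.05. ME1, IDH1 and TKT were higher in every KCl library than in any control library and TALDO1 lower, while the points of the other 5 genes overlapped.

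Levels per unit of gene length spanned a wide range. TKT was the highest of the 9 in control, at 388.7 TPM (the authors' measure scaled by gene length and library size), and RPIA the lowest, at 22.3 ± 1.93 TPM (mean ± SD, n = 3). Between them in control came TALDO1 at 231.3, PGLS at 231.2, PGD at 209.5, IDH2 at 112.1, IDH1 at 79.7, RPE at 62.9 and ME1 at 32.6 TPM. The control libraries of TALDO1 and PGLS overlapped in level, and those of the other neighbours in this order did not. In KCl, TALDO1 at 203.5 TPM came after PGLS at 242.5 and PGD at 205.3 TPM, with TALDO1 and PGD overlapping. The IDH2 (106.1 TPM) and IDH1 (105.9 TPM) libraries also overlapped in KCl.

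Neither PGLS nor PGD, the members from the oxidative branch, was called. PGLS, whose product opens the lactone ring made in the branch's opening reaction, is a gene of chromosome 19 (17511629 to 17521288, GRCh38, plus strand). It was at 102.8, 108.6 and 97.3 CPM in control and at 109.4, 104.7 and 119.1 CPM in KCl, and the groups overlapped. The change, 0.11 ± 0.05 (SE) on the log2 scale, missed the threshold (edgeR adjusted p = 0.107, 95% interval 0.00 to 0.22). It passed as higher without control replicate 2 (edgeR adjusted p = 0.0484) and without KCl replicate 2 (0.0395), and its adjusted p spanned 0.0395 to 0.622 in the 15 alternatives.

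PGD (chromosome 1, 10398592 to 10420144, plus strand) codes for the dehydrogenase that releases carbon dioxide and makes NADPH. It was at 219.5, 225 and 215.5 CPM in control and at 221.9, 221.3 and 219.7 CPM in KCl. All 3 KCl libraries lay within the range of the control libraries, and the log2 fold change was 0.01 ± 0.04 (edgeR adjusted p = 0.919, 95% interval -0.08 to 0.09). On FPKM the control libraries were at 98.8, 101.2 and 97.1 and the KCl libraries lower, at 95.4, 95.2 and 94.5, and the difference did not pass there either (limma adjusted p = 0.219). The summed level of PGLS and PGD was 440.7 ± 12.8 TPM in control and 447.8 ± 13.8 TPM in KCl (n = 3), a difference smaller than the SD of either group.

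In the non-oxidative branch 1 gene rose and 1 fell. TKT (chromosome 3, 53224707 to 53256052, minus strand) codes for transketolase, which passes carbon units between sugar phosphates. Its level was 383, 391.1 and 382.2 CPM in control and 502.9, 484.2 and 527.9 CPM in KCl. Every KCl library was above every control library, and the rise was 1.31-fold (log2 fold change 0.39 ± 0.04, edgeR adjusted p = 2.33e-08). With 7255 to 9820 reads in a library TKT had the most reads of the 9. The paralogs TKTL1 and TKTL2 had at most 2 and 1 reads in a library. How the counting shared reads between paralogs was not tested.

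TALDO1 (chromosome 11, 747329 to 765024, plus strand) codes for transaldolase, the branch's other carbon transfer enzyme. It was at 125.4, 127.4 and 122.9 CPM in control and at 116.9, 114.9 and 108 CPM in KCl, without overlap. KCl replicate 3 was the lowest library. The log2 fold change was -0.15 ± 0.05 (edgeR adjusted p = 0.0153), a level 0.904 times that of control. Without KCl replicate 3 the value was -0.11 and the call was lost (edgeR adjusted p = 0.0957), while over all alternatives the adjusted p spanned 0.00232 to 0.0957.

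The transferase genes thus moved in opposite directions. The TPM ratio of TKT to TALDO1, which does not depend on how libraries are scaled to each other, was 1.67, 1.68 and 1.7 in control and 2.37, 2.33 and 2.69 in KCl. The ratio was higher in all 3 KCl libraries, and the mean went from 1.68 ± 0.0147 to 2.46 ± 0.197 (n = 3). The ratio of TKT to PGD, a gene of each branch, went from 1.86 ± 0.0187 to 2.44 ± 0.117, also without overlap (1.84 to 1.88 against 2.33 to 2.56). As PGD was nearly level (209.5 and 205.3 TPM), this ratio mostly restates the rise of TKT. Within the oxidative branch the ratio of PGD to PGLS was 0.905, 0.879 and 0.938 in control and 0.86, 0.905 and 0.782 in KCl, and the groups overlapped.

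RPIA and RPE code for the isomerase and the epimerase that set ribulose phosphate on its way to ribose phosphate, the precursor of nucleotides, or to xylulose phosphate, a substrate of transketolase. RPIA (chromosome 2, 88691644 to 88750935, plus strand) was at 19.5, 18.9 and 16.3 CPM in control and at 16.4, 17 and 17.4 CPM in KCl. The groups overlapped through control replicate 3, and the change, -0.11 ± 0.09 on the log2 scale, missed the threshold (edgeR adjusted p = 0.367). RPIA had the fewest reads, 307 to 383 in a library, and its 95% interval (-0.29 to 0.08) was the widest of the 9.

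RPE (chromosome 2, 210002565 to 210022259, plus strand) was at 83.8, 85.9 and 78.3 CPM in control and at 92.2, 85.2 and 83.4 CPM in KCl. These values overlapped, and the change, 0.07 ± 0.05 on the log2 scale, missed the threshold (edgeR adjusted p = 0.304, 95% interval -0.04 to 0.18). RPE shares 837 exon bases with KANSL1L on the opposite strand. The library kit keeps the strand per the labels, whether the counting used it is not given in the sources used here, and KANSL1L had 116 to 158 reads in a library, against 1486 to 1722 for RPE. The retrocopy RPEL1 had at most 3 reads. The 4 non-oxidative genes together were at 705.3 ± 7.86 TPM in control and 789 ± 10.4 TPM in KCl (n = 3), without overlap, and TKT alone went from 388.7 to 500.3 TPM.

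**Figure D2:**
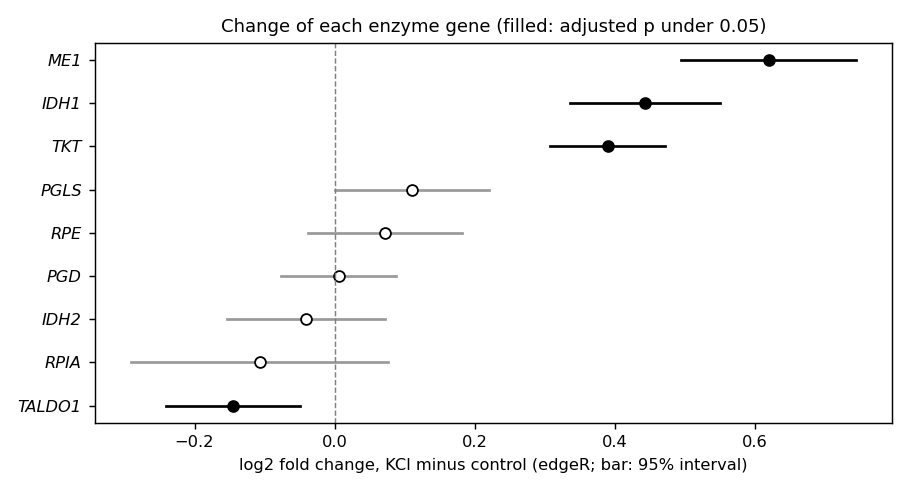
Log2 fold change (KCl minus control, x axis) of the 9 genes with its 95% interval from the edgeR fit, filled where the adjusted p was under 0.05. ME1 (0.62), IDH1 (0.44) and TKT (0.39) lie right of 0 and TALDO1 (-0.15) left of it.

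Both cytosolic enzymes outside the pentose phosphate pathway rose, and the mitochondrial one did not pass. ME1 (chromosome 6, 83210389 to 83431071, minus strand) codes for the cytosolic malic enzyme, which makes NADPH and pyruvate from malate. Its level was 45.9, 43.7 and 39.7 CPM in control and 65.7, 67.7 and 65.4 CPM in KCl. The KCl libraries lay close together and all above control. The 1.54-fold rise (log2 fold change 0.62 ± 0.06, edgeR adjusted p = 1.17e-08) was the largest of the 9, and 6.8% of all genes tested had a change at least as large in either direction.

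IDH1 (chromosome 2, 208236227 to 208266074, minus strand) codes for the isocitrate dehydrogenase of the cytosol and peroxisomes. It was at 85, 92.3 and 80.1 CPM in control and at 120.5, 115.7 and 113.7 CPM in KCl. The groups did not overlap, and the rise was 1.36-fold (log2 fold change 0.44 ± 0.05, edgeR adjusted p = 2.44e-07). In GENCODE its exons share 94 bases with the antisense gene IDH1-AS1, which was not analysed here. PGLS shares 261 exon bases with a non-coding gene on its opposite strand, also not analysed here.

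IDH2 (chromosome 15, 90083045 to 90102504, minus strand) codes for the mitochondrial NADP-linked enzyme. It was at 97.6, 86.7 and 86 CPM in control and at 91.9, 84.4 and 86.5 CPM in KCl. The groups overlapped, and the change, -0.04 ± 0.05 on the log2 scale, missed the threshold (edgeR adjusted p = 0.587, 95% interval -0.15 to 0.07). The interval of IDH1 (0.34 to 0.55) lay wholly above it. Within libraries the TPM ratio of IDH1 to IDH2 was 0.653, 0.794 and 0.694 in control and 0.981, 1.03 and 0.984 in KCl, without overlap.

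The genes whose log2 CPM, centred over the 6 libraries, lay nearest to ME1 among 11727 genes were TFRC, the transferrin receptor gene (mean absolute difference 0.029), ITGBL1 (0.033) and RCAN2 (0.034). Nearest to IDH1 were INSIG2, a regulator of sterol synthesis (0.014), LURAP1L (0.021) and C3orf58 (0.026). TFRC went from 85.7 to 133 CPM, ITGBL1 from 62.3 to 93.5 CPM and RCAN2 from 10.1 to 15.2 CPM. INSIG2 went from 9.47 to 12.7 CPM, LURAP1L from 38.8 to 53.7 CPM and C3orf58 from 13.9 to 19 CPM. The rule always returns 3 genes, and 20.1% of all genes tested were called higher, so nearness is a description only. A shared function was not tested.

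The genes around these enzymes were taken from lists set by function, with all counts from the same fit. Over all genes tested, 20.1% were called higher and 18.0% lower (38.0% in either direction), the shares to set beside each list's counts. Of 17 genes of pentose phosphate entry, exit and side reactions, 14 were tested, 2 rose and 3 fell, with a median log2 fold change of -0.05. HK1, a hexokinase gene that feeds glucose into the pathway, rose by 0.31 ± 0.04, from 193.1 ± 3.9 to 239.4 ± 3.27 CPM. H6PD, which codes for the oxidative enzyme of the endoplasmic reticulum, went from 65.2 ± 1.73 to 50.9 ± 4.41 CPM (log2 fold change -0.36 ± 0.06, edgeR adjusted p = 5.82e-05). DERA, a deoxyribose phosphate aldolase gene, fell by 0.45 on the log2 scale, from 41.9 to 30.6 CPM. RBKS, the ribokinase gene, was called lower at a low level (1.97 against 1.09 CPM, log2 fold change -0.85 ± 0.29, edgeR adjusted p = 0.0219). RBKS missed the threshold without control replicate 1 (edgeR adjusted p = 0.0606), control replicate 3 (0.0617), KCl replicate 2 (0.0708) or KCl replicate 3 (0.0835), within a range of 0.00273 to 0.0835. The higher count of this list was 1 in place of 2 by limma on TPM or FPKM and without control replicate 1, control replicate 2, KCl replicate 1 or KCl replicate 2, and the lower count was 5 on FPKM.

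Of 13 folate and mitochondrial NADPH sources and NAD kinases, 12 were tested, 1 rose and 4 fell, with a median of -0.07. NADK2, the mitochondrial NAD kinase gene, fell by 0.41 on the log2 scale, from 17.7 ± 1.36 to 13.3 ± 0.904 CPM, while NADK, the cytosolic kinase gene, was at -0.02, missed the threshold and was named after its value was seen. The other falls were small, in the folate enzyme genes MTHFD2 (-0.15 ± 0.04), MTHFD1 (-0.14 ± 0.04) and ALDH1L2 (-0.13 ± 0.04). The ALDH1L2 call was lost without KCl replicate 1 (edgeR adjusted p = 0.079, range 0.00468 to 0.079). The 1 gene called higher was ME3, a mitochondrial NADP-linked malic enzyme gene (0.28 ± 0.11, edgeR adjusted p = 0.046), named after its value was seen. The higher count was 0 by DESeq2, without the low-count filter, by limma on TPM or FPKM, and without control replicate 1, control replicate 2, KCl replicate 2 or KCl replicate 3.

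Among the 4 NAD-linked counterparts of the malic and isocitrate enzymes, 1 rose and 1 fell, with a median of -0.01. ME2, the mitochondrial malic enzyme gene, went from 68.5 ± 3.07 to 56.2 ± 2.22 CPM (log2 fold change -0.29 ± 0.06, edgeR adjusted p = 0.000274). IDH3G, a subunit gene of the NAD-linked isocitrate dehydrogenase, was at 0.13 ± 0.05 (edgeR adjusted p = 0.0295), and its call was lost in 8 of 15 alternatives (adjusted p 0.0301 to 0.269), 5 of which left out a library: control replicate 1 (0.089), control replicate 2 (0.0719), control replicate 3 (0.0561), KCl replicate 1 (0.104) or KCl replicate 2 (0.0527). The TPM ratio of ME1 to ME2 was 0.765, 0.792 and 0.653 in control and 1.31, 1.39 and 1.34 in KCl. ME1 was thus below ME2 per length in all 3 control libraries and above it in all 3 KCl libraries.

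Of 11 genes that supply citrate and malate, 3 rose and 1 fell, with a median of -0.03. ACLY, which codes for the enzyme that splits citrate in the cytosol, rose by 0.41 ± 0.04, from 377.7 ± 3.69 to 501.9 ± 13.1 CPM. ACO1, the cytosolic aconitase gene whose product makes the isocitrate that IDH1 uses, rose by 0.30 ± 0.04. SLC25A1, the mitochondrial citrate exporter gene, rose by 0.24 ± 0.04. SLC25A11, the oxoglutarate and malate carrier gene, was lower (-0.19 ± 0.05). The lower count was 3 on FPKM and 2 on TPM in place of 1.

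**Figure D3:**
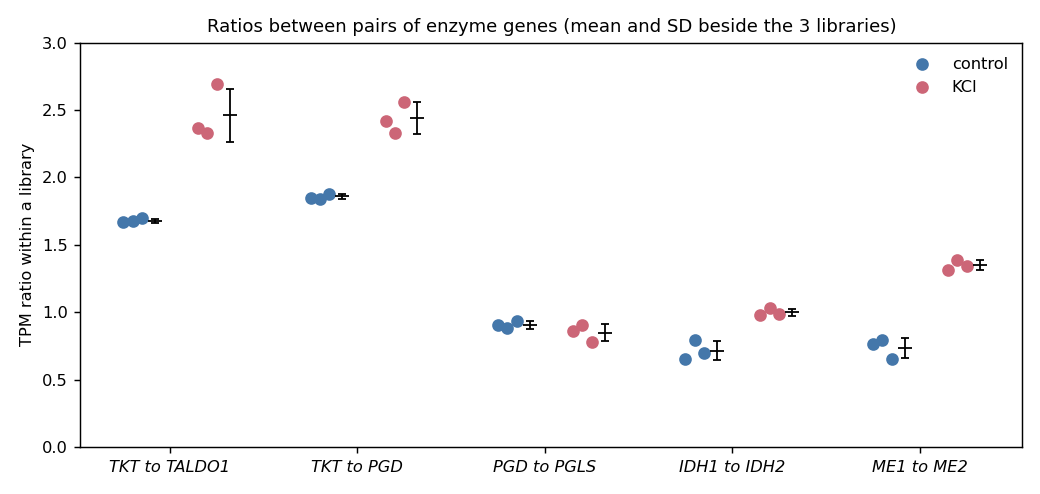
TPM ratios within each library (y axis from 0) for 5 pairs of enzyme genes in 3 control and 3 KCl libraries, with the mean and SD beside the points. The KCl libraries lie above the control libraries in 4 pairs, as for IDH1 to IDH2 (0.653 to 0.794 in control, 0.981 to 1.03 in KCl), and overlap with them for PGD to PGLS.

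The ME1 to ME2 pair was picked after its values were seen, so this ratio is given as a description. In it, as in IDH1 to IDH2, the numerator codes for a cytosolic enzyme and the denominator for a mitochondrial one. The enzymes of ME1 and ME2 also differ in cofactor, and ME3, a mitochondrial NADP-linked gene, was called higher. A link between compartment and direction was not tested.

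Genes whose enzymes use NADPH were counted in the same way. Of 10 NADPH-using reductases, 7 rose and 1 fell (median 0.27), and of 9 NADPH-using enzymes of fatty acid and sterol synthesis, 7 rose and 1 fell (median 0.60), where 20.1% and 18.0% of all genes were called higher and lower. The lists were chosen with earlier results of these data known, so their counts beside these shares are a description only. The difference between these lists and the 9 genes was not tested. Among the reductases with the smallest p were AKR1B1, an aldose reductase gene (1.24 ± 0.05), TXNRD1 and TXNRD2, the cytosolic and mitochondrial thioredoxin reductase genes (0.88 ± 0.04 and 0.65 ± 0.08), and the quinone reductase gene NQO1 (0.88 ± 0.04). GSR, the glutathione reductase gene, had 42.9 ± 0.659 CPM without and 44.9 ± 0.453 CPM with KCl, a change of 0.07 ± 0.06 on the log2 scale that missed the threshold (edgeR adjusted p = 0.413), and was named after its value was seen. In the lipid list FASN (1.08 ± 0.05), DHCR7 (0.97 ± 0.05), SQLE (0.94 ± 0.05) and MSMO1 (1.09 ± 0.06), which code for a fatty acid synthase and sterol enzymes, had the smallest p. The log2 fold change of ME1, 0.62, was below that of each of these 4. The 1 fall in the lipid list was TM7SF2 (-0.48 ± 0.11), a sterol reductase gene, and the 1 among the reductases SRD5A3 (-0.63 ± 0.11), a polyprenol reductase gene, both named after their values were seen. The higher count of the reductases was 5 in place of 7 by DESeq2, by limma on TPM or FPKM and without control replicate 3. It was 6 without control replicate 1, KCl replicate 1, KCl replicate 2 or KCl replicate 3. The lower count of the reductases was 2 on FPKM.

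**Figure D4:**
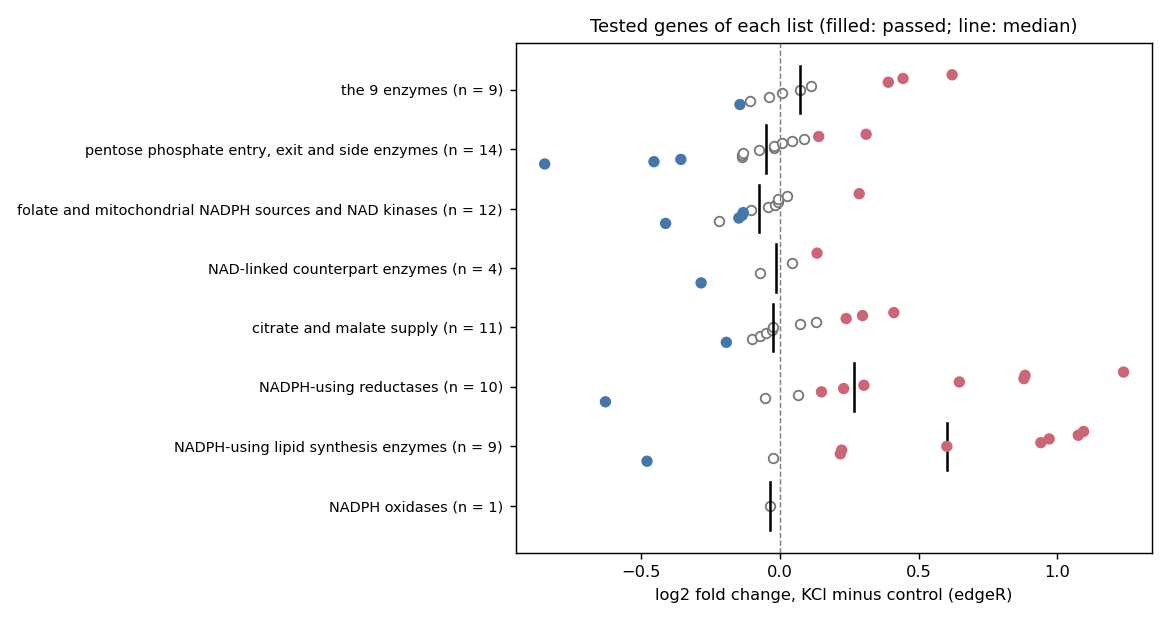
Log2 fold change (x axis, KCl minus control, edgeR) of every tested gene of each list, filled red where called higher, filled blue where called lower and open where not called, with the list's median as a line. The medians of the NADPH-using reductases (0.27) and lipid synthesis enzymes (0.60) lie right of that of the 9 genes (0.07).

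Of 10 genes of NADPH oxidases, which spend NADPH on making superoxide or hydrogen peroxide, 1 passed the filter on low counts, and it was not called. The catalytic subunit genes were at or under 0.431 CPM in every library, with CYBB at 0 in all 6. With no read seen, up to 3 reads remain possible per library, or 0.152 to 0.162 CPM on the same TMM scale. The gene tested was CYBA, which codes for a membrane subunit that stabilises several of the oxidases. It had 65.3 ± 0.623 CPM without and 63.7 ± 8.84 CPM with KCl, and missed the threshold (log2 fold change -0.04 ± 0.07, edgeR adjusted p = 0.731).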

How the data were processed

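Strand-specific mRNA libraries were sequenced on DNBSEQ per the labels' protocols, and the submitters' processing notes name the build GRCh38.p12. The sources used here do not name the aligner or the counter. The authors deposited estimated counts (11.25% to 11.87% per library not whole, all whole for the 9 genes), TPM and FPKM, with group means whose header names gave the column codes their groups (largest difference 3.3e-10). Estimated counts were rounded and tested with edgeR 4.0.16 (R 4.3.3): TMM scaling, filterByExpr (minimum count 10, minimum total 15), robust two-sided quasi-likelihood F test, Benjamini-Hochberg adjustment over 13044 genes. The SE is the log2 fold change divided by the square root of F. Alternatives used DESeq2 1.42.0 and limma 3.58.1, other scalings and filters, a replicate block, and leaving out each library. The fits were also run on simulated counts in which few genes changed. That setting does not cover the differences between counts, TPM and FPKM, so no result here rests on it. Positions came from GENCODE 29 and promoters from RefSeq. A total of 27 symbols had become dates and were restored by gene ID, and 1 marker (CD3E) was not matched.

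Within groups, libraries differed beyond sampling noise (chi-square per gene 3.19 to 4.84), so none was a copy. The labels do not say whether they came from separate cultures, so p-values measure only how these libraries vary, which may be technical variation. Limits from counts cover counting error only. The 9 genes and the lists were chosen with earlier results of these data known, and a few list genes were left out of the lists and are not reported here. All 9 genes are named, with the 4 genes of smallest p among those that passed in each list, or the 1 of smallest p where none passed, and the 3 genes nearest in log2 CPM (prior count 2) to each of the 2 members of largest change.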

Additional observations from a re-analysis of the deposited data

How the results depend on the processing

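ME1, IDH1 and TKT kept their direction and their call in all 15 alternatives, with log2 fold changes of 0.49 to 0.67, 0.37 to 0.50 and 0.33 to 0.42. TALDO1 stayed lower in all 15 (-0.21 to -0.11) and lost its call in 1, without KCl replicate 3, so that the lower members numbered 0 to 1 when each library was left out in turn. The higher members numbered 3 to 4 in the same alternatives. PGD, which was not called, changed sign on log2(TPM + 1) (-0.03), log2(FPKM + 1) (-0.059), log2(FPKM + 0.1) (-0.059) and without control replicate 3 (-0.012, in a range of -0.012 to 0.02 when each library was left out). IDH2, also not called, did so without control replicate 1 (0.017, in a range of -0.077 to 0.017), and CYBA, also not called, without KCl replicate 2 (0.075, in a range of -0.096 to 0.075). The genes called higher over the table were 1580 by limma on log2(FPKM + 1) and 1581 on log2(FPKM + 0.1), in place of 2621. The median change over all genes was -0.055 and -0.069 on these scales, against -0.005 on counts (log2). Leaving out a library gave 2183 to 2410 higher and 1878 to 2151 lower calls, and DESeq2 gave 2314 and 1999. With the replicate number as a replicate block, 2715 genes were higher and 2425 lower and the members' counts stayed at 3 and 1. Libraries with the same number showed little shared deviation (correlations -0.0, -0.026 and 0.045), and control replicate 2 correlated best with KCl replicate 1 (0.115). With 3 libraries in a group, these correlations cannot decide whether equal numbers mark paired libraries. The labels do not say so either. Of 23 named genes of the other lists, 19 kept direction and side of the threshold in every alternative that gave a value. At this depth RPIA, with 307 to 383 reads, had the least precise change.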
